A study of Mus musculus with 10 samples.

Results

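Hippo pathway genes and targets of the coactivator YAP were followed across 5 groups of mouse ovarian follicle libraries. The members are the 10 symbols Yap1, Wwtr1, Tead1, Lats1, Lats2, Stk3, Ctgf, Cyr61, Amotl2 and Ankrd1, of 23234 symbols in the table of transcript levels. They were taken by name, with no cutoff on a measured value, but with earlier results of these data known. They fall into 6 pathway genes and 4 targets (Ctgf, Cyr61, Amotl2 and Ankrd1). Of the cumulus libraries, made from the granulosa cells that enclose the oocyte, 3 were from 10-month-old and 3 from 2-month-old C57BL/6 mice. A further 2 libraries were from mural cells, the granulosa cells of the follicle wall, of 2-month-old C57BL/6 mice. Whole cumulus-oocyte complexes came from 3-week-old mice primed with PMSG, a gonadotropin, with 1 library each from BDF1 and DBA/2 mice. For all libraries the labels' protocol names a basic culture medium with milrinone, an inhibitor of phosphodiesterase, and it names mice primed with eCG, the same gonadotropin, as the source of the mural cells. The labels do not state whether mice that gave cumulus cells were primed as well, so cell type and priming cannot be told apart in the mural comparison. No group carries a transgene or a deletion, per the labels.

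The Hippo pathway is a kinase cascade that limits organ growth. The kinases MST1 and MST2 activate the kinases LATS1 and LATS2, which phosphorylate YAP and its relative TAZ and keep them in the cytoplasm. Unphosphorylated YAP and TAZ enter the nucleus, bind DNA through TEAD factors and switch on genes such as those for the matricellular proteins CTGF and CYR61. In the mouse ovary, disruption of Hippo signalling is known to promote follicle growth. Much of the pathway acts through protein phosphorylation and location, neither of which is measured by transcript levels.

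Transcript levels are given as FPKM, mapped fragments scaled to transcript length and to library size, so levels of different genes can be set side by side. Between 11373 and 12637 genes reached an FPKM of 1 in a library. No label ties the replicates to different animals, and every p-value therefore rests on a spread among libraries that may be technical. Granulosa markers were present in every library, with 0 of 9 listed at 0 in any library. Oocyte markers were uneven, with a median log2(FPKM + 1) over the list of 4.23, 3.52 and 4.82 in 10-month cumulus replicates 1, 2 and 3, and of 3.64 and 1.11 in mural cells. It was 7.50 in BDF1 and 7.57 in DBA/2 complexes, and 4.0, 0 and 6.61 in 2-month cumulus replicates 1, 2 and 3. Markers of other cells were higher in all 3 libraries of 10-month cumulus cells than in 2-month cumulus cells for some lists. Immune markers summed to 18.7, 40.9 and 66.1 FPKM at 10 months, against 3.58 to 5.32 FPKM at 2 months, and theca and stroma markers to 37.1, 37.5 and 62.1 FPKM, against 15.5 to 18.1 FPKM. Their part in the age differences of Ctgf, Wwtr1 and the other members was not tested. Of the 10-month libraries, replicate 3 held the most of these lists and of those that follow. Its summed FPKM was 1211 for mural markers (93.7 and 440.5 in replicates 1 and 2), 118 for surface epithelium markers (58.4 and 58.4) and 24.1 for endothelial markers (4.54 and 6.33). The 2-month cumulus libraries held 68.6 to 93.7, 26.9 to 34.9 and 1.73 to 5.18 for the same lists. Much of the surface epithelium sum was Krt8, at 50.1 and 33.2 FPKM in 10-month replicates 1 and 2. The median log2(FPKM + 1) over that list differed more, at 0.11, 1.78 and 3.29 in replicates 1, 2 and 3.

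Upstream sequences of 3 targets are shown because they carry the letters GGAATG, which TEAD factors are known to bind. RefSeq promoters (build GRCm38.p6, 250 bases before the start of transcription to 50 bases from it on) were matched for 7 of the 10 members. Ctgf, Tead1 and Stk3 had no entry there, so whether their promoters hold these letters is unknown here. The 250 bases before the start are printed, 5′ to 3′ on the gene's strand, with matches to GGAATG on either strand in capitals (the reverse strand reads CATTCC). The deposited values were made on another build, so these positions belong to the RefSeq table alone.
Cyr61 (chr3:145649986-145650235, minus strand): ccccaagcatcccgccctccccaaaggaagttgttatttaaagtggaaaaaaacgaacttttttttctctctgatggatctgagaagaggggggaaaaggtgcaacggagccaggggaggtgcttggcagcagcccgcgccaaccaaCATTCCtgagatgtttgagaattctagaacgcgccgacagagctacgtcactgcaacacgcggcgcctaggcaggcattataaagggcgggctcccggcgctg
Amotl2 (chr9:102717554-102717803, plus strand): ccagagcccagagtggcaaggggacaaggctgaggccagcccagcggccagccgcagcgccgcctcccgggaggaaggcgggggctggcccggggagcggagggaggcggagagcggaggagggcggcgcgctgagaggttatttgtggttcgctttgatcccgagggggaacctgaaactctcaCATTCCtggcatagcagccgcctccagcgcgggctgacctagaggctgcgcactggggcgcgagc
Ankrd1 (chr19:36119845-36120094, minus strand): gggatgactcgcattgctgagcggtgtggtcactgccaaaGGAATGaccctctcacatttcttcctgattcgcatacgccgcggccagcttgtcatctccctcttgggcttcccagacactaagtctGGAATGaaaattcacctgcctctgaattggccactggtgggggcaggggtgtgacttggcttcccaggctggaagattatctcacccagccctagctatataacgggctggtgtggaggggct

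The match began 103 bases before the start in Cyr61 and 65 bases before it in Amotl2, and Ankrd1 held 2 matches, at 210 and 123 bases. Yap1 held a match 141 bases and Wwtr1 a match 136 bases before the start, counted for Wwtr1 from the first of its 2 listed starts. Lats2 held its match just after the start, and Lats1 held none. In all, 6 of the 7 members held GGAATG in the 300 bases, as did 16.6% of 27025 genes in the table. The letters TGANTCA, which FOS and JUN factors are known to bind, were in 0 of 7 member promoters and in 8.97% of genes. The CArG box, which serum response factor is known to bind, was in 0 of 7 and in 1.81% of genes. A match is a run of letters in this window and says nothing of binding.

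The kinase genes Stk3 and Lats1 set none of the C57BL/6 groups apart. Stk3, which encodes MST2, stood at 8.63, 9.13 and 10.96 FPKM in 10-month cumulus cells, at 10.7 and 11.9 FPKM in mural cells, at 10.0 and 14.7 FPKM in BDF1 and DBA/2 complexes, and at 8.82, 13.2 and 12.9 FPKM in 2-month cumulus cells. Lats1 stood at 11.4, 9.57 and 13.0 FPKM in 10-month cumulus cells, at 10.2 and 10.8 FPKM in mural cells, at 10.6 and 11.03 FPKM in BDF1 and DBA/2 complexes, and at 9.71, 12.5 and 12.1 FPKM in 2-month cumulus cells. All C57BL/6 groups overlapped in both genes, so no order of the groups held beyond their spread. The fitted log2 fold change of Lats1, on the log2(FPKM + 1) scale that all fold changes here use, was -0.02 at 10 against 2 months (95% interval -0.37 to 0.34, adjusted p = 0.981, limma) and -0.11 in mural against cumulus cells (-0.51 to 0.29, adjusted p = 0.688), and its sign flipped in both when libraries were rescaled to the same sum. For Stk3 the values were -0.24 (-0.66 to 0.17, adjusted p = 0.583) and -0.02 (-0.48 to 0.44, adjusted p = 0.963), the second flipping under rescaling, quantile normalization and median centring.

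Lats2, the second LATS kinase and itself a YAP target in other cells, was the only 1 of the 6 pathway members that set 2-month cumulus cells apart from every other library. It stood at 11.4, 6.38 and 12.3 FPKM in 10-month cumulus cells, at 10.1 and 10.9 FPKM in mural cells, at 8.54 and 12.8 FPKM in BDF1 and DBA/2 complexes, and at 4.39, 6.02 and 6.04 FPKM in 2-month cumulus cells. Every other library thus lay above all 3 libraries of 2-month cumulus cells, while mural and 10-month cumulus cells overlapped. Of all genes, 8.93% were higher in every 10-month library and 25.6% in every mural library than in 2-month cumulus cells. After rescaling to the same sum the ages overlapped. The mean was 10.1 ± 3.21 FPKM at 10 months, against 5.48 ± 0.945 FPKM at 2 months (SD, n = 3 each), a log2 fold change of 0.73 ± 0.24 SE that did not pass (adjusted p = 0.275, limma). It passed in 1 of 20 alternatives, without 10-month replicate 2, at 1.00 (adjusted p = 0.0450). Over all 20 it ranged over 0.57 to 1.00, with adjusted p up to 0.563. In mural cells the mean was 10.5 ± 0.568 FPKM (SD, n = 2), a log2 fold change of 0.84 ± 0.27 SE against 2-month cumulus cells that did not pass either (adjusted p = 0.0628). Over 20 alternatives this difference ranged over 0.71 to 1.07 and passed in 4. These were each library centred on its median (0.0480), these groups alone in the fit (0.0301), library weights (0.00964) and 10-month cumulus replicate 2 left out (0.0191).

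Since Lats1 and Lats2 are read in the same library, their ratio does not depend on how libraries are scaled. Lats2 over Lats1 was 1.00, 0.667 and 0.952 in 10-month cumulus cells, 0.993 and 1.01 in mural cells, 0.806 and 1.16 in BDF1 and DBA/2 complexes, and 0.452, 0.481 and 0.50 in 2-month cumulus cells. The paralogs were thus at about equal levels in mural cells, and Lats2 at 0.452 to 0.50 of Lats1 in each of the 3 libraries of 2-month cumulus cells, which do not overlap with any other group.

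**Figure D1:**
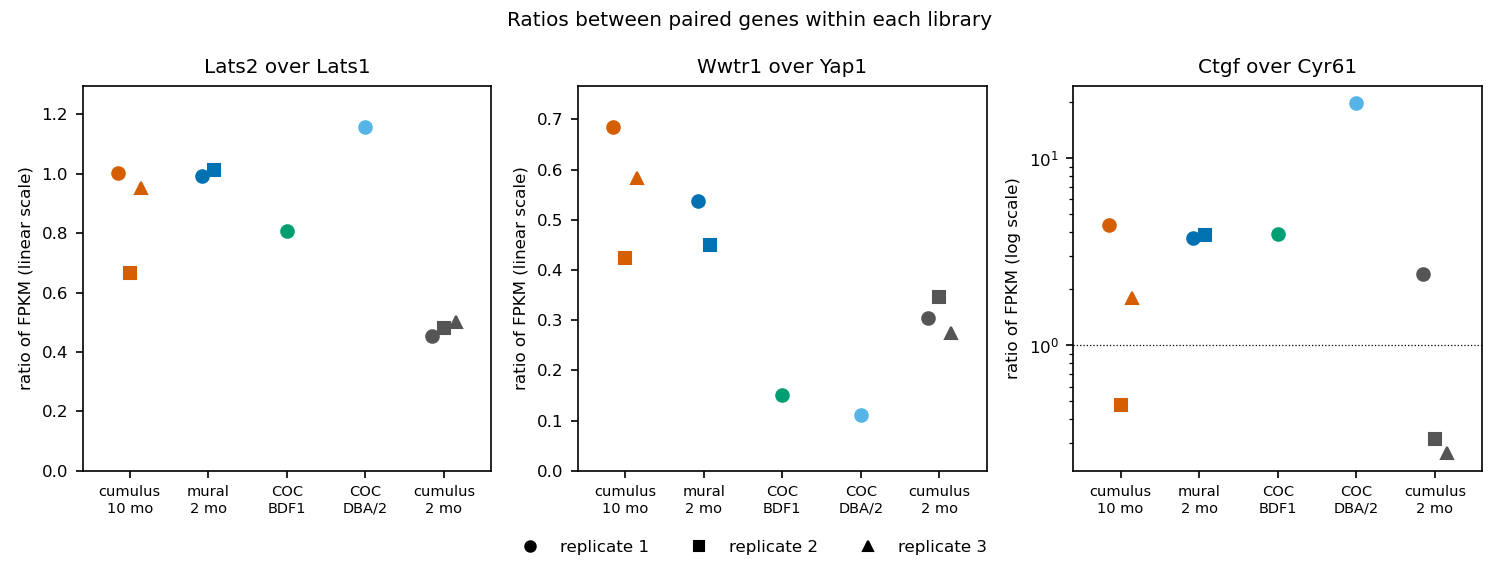
Ratios of FPKM between paired genes within each library (y axis; linear for Lats2 over Lats1 and Wwtr1 over Yap1, log scale for Ctgf over Cyr61), by group along the x axis, with 1 point per library. The 3 libraries of 2-month cumulus cells have Lats2 over Lats1 between 0.452 and 0.50, below the other libraries, and complexes have Wwtr1 over Yap1 of 0.15 and 0.112.

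Among the coactivators, Yap1 was highest in complexes and Wwtr1, which encodes TAZ, in 10-month cumulus cells. Yap1 stood at 76.0 and 86.7 FPKM in BDF1 and DBA/2 complexes, against 24.1 to 43.9 FPKM over the 8 libraries from C57BL/6 mice. It was the only 1 of 9 tested members with both complexes above all of these libraries, as were 22.6% of all genes tested, and 0 members lay below them in both, as did 8.23% of all genes. The complexes have 1 library per strain and differ from the other groups in strain, age, priming and the oocyte, which cannot be told apart, so no test is given. Within 2-month cumulus cells Yap1 stood at 29.1, 27.0 and 41.0 FPKM in replicates 1, 2 and 3, and the oocyte factor Gdf9 at 54.4, 0.647 and 261 FPKM. The highest Yap1 of these libraries was in the replicate with the most Gdf9, and the part of oocyte transcripts in Yap1 was not tested. In bulk RNA, fewer cells of a type and less RNA per cell cannot be told apart.

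In mural cells Yap1 stood at 24.5 and 24.1 FPKM, below all 3 libraries of 2-month cumulus cells, as did 32% of all genes tested (log2 fold change -0.38, 95% interval -0.96 to 0.21, adjusted p = 0.325, limma). After rescaling to the same sum the groups overlapped, and 0 members were lower in every mural library. In 10-month cumulus cells it stood at 40.7, 26.5 and 43.9 FPKM, overlapping with 2-month cumulus cells (log2 fold change 0.18, 95% interval -0.34 to 0.70, adjusted p = 0.778).

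Wwtr1 stood at 27.9, 11.3 and 25.6 FPKM in 10-month cumulus cells, at 13.2 and 10.9 FPKM in mural cells, at 11.4 and 9.67 FPKM in BDF1 and DBA/2 complexes, and at 8.85, 9.38 and 11.3 FPKM in 2-month cumulus cells. Replicates 1 and 3 at 10 months were above every other library, whereas replicate 2 lay in the range of 2-month cumulus cells. The mean was 21.6 ± 8.99 FPKM at 10 months, against 9.84 ± 1.28 FPKM at 2 months (SD, n = 3 each), a log2 fold change of 0.97 ± 0.31 SE that did not pass (adjusted p = 0.271, limma). Without 10-month replicate 2 it was 1.36 and passed (adjusted p = 0.0173), and without replicate 3, the library with the most markers of other cells, it was 0.80 (adjusted p = 0.481). Mural and 2-month cumulus cells overlapped (log2 fold change 0.26, adjusted p = 0.627), but not after rescaling to the same sum.

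Wwtr1 stayed below Yap1 in all 10 libraries. Wwtr1 over Yap1 was 0.684, 0.425 and 0.583 in 10-month cumulus cells, 0.537 and 0.450 in mural cells, 0.15 and 0.112 in BDF1 and DBA/2 complexes, and 0.304, 0.347 and 0.275 in 2-month cumulus cells. Every library of 10-month cumulus and of mural cells lay above every library of 2-month cumulus cells, and both complexes lay below them all.

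Tead1, a DNA-binding partner of YAP and TAZ, varied with Wwtr1 among the 10-month libraries. It stood at 9.06, 3.78 and 15.9 FPKM in 10-month cumulus cells, at 6.33 and 5.66 FPKM in mural cells, at 4.74 and 5.10 FPKM in BDF1 and DBA/2 complexes, and at 3.82, 5.09 and 4.48 FPKM in 2-month cumulus cells. Replicate 2 at 10 months was the lowest of all libraries and replicates 1 and 3 the highest. The log2 fold change at 10 against 2 months was 0.78 ± 0.40 SE (adjusted p = 0.438, limma) and 0.35 without replicate 3 (adjusted p = 0.723). Both mural libraries were above all 2-month cumulus libraries, as for 25.6% of all genes, with a log2 fold change of 0.36 (adjusted p = 0.604). Its paralog Tead2 was the highest TEAD gene in every library, with 25.8 to 29.2 FPKM in 10-month cumulus cells, 25.7 and 32.4 FPKM in mural cells, 24.6 and 13.2 FPKM in BDF1 and DBA/2 complexes, and 21.8 to 28.4 FPKM in 2-month cumulus cells.

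Ctgf, a matricellular growth factor of follicle cells, had the largest difference with age of the 9 tested members. It stood at 271, 98.3 and 158 FPKM in 10-month cumulus cells, at 66.8 and 38.3 FPKM in mural cells, at 63.6 and 61.1 FPKM in BDF1 and DBA/2 complexes, and at 18.9, 33.3 and 34.4 FPKM in 2-month cumulus cells. The C57BL/6 groups did not overlap, and they ran in the order 10-month cumulus, mural, 2-month cumulus. Above every 2-month cumulus library were 8.93% of all genes in every 10-month library and 25.6% in every mural library. The share of all genes with the order of all these groups was not counted. The mean was 176 ± 87.9 FPKM at 10 months, against 28.8 ± 8.67 FPKM at 2 months (SD, n = 3 each), a log2 fold change of 2.49 ± 0.41 SE (95% interval 1.55 to 3.44), which did not pass over all 12412 genes tested (adjusted p = 0.152, limma). It passed without 10-month replicate 2, the lowest of the 3, at 2.85 (adjusted p = 0.0275), and with library weights, at 2.61 (adjusted p = 0.0467). Over all 20 alternatives it ranged over 2.12 to 2.85, with adjusted p from 0.0275 to 0.477, and without replicate 3 at 10 months it was 2.51 (adjusted p = 0.299). Mural cells averaged 52.5 ± 20.2 FPKM (SD, n = 2), a log2 fold change of 0.84 ± 0.46 SE against 2-month cumulus cells that did not pass (adjusted p = 0.225).

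Cyr61, a matricellular protein related to CTGF, followed another order. It stood at 61.6, 206 and 88.8 FPKM in 10-month cumulus cells, at 18.0 and 9.84 FPKM in mural cells, at 16.2 and 3.12 FPKM in BDF1 and DBA/2 complexes, and at 7.90, 106 and 131 FPKM in 2-month cumulus cells. Replicate 2 at 10 months was the highest library for Cyr61 and the lowest of its group for Ctgf, and 2-month cumulus replicate 1 lay below both mural libraries. The log2 fold change at 10 against 2 months was 1.07 ± 0.99 SE (adjusted p = 0.681, limma) and turned to -0.18 without 2-month replicate 1 (adjusted p = 0.946). In mural against 2-month cumulus cells it was -1.80 ± 1.11 SE (adjusted p = 0.282). It passed there in 2 of 20 alternatives, without 2-month replicate 1, at -3.05 (adjusted p = 0.0238), and with library weights, at -2.40 (adjusted p = 0.0490).

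Amotl2, a scaffold of cell junctions that binds YAP, was high in all 10-month libraries. It stood at 27.3, 26.1 and 23.3 FPKM in 10-month cumulus cells, at 10.6 and 23.2 FPKM in mural cells, at 7.41 and 7.15 FPKM in BDF1 and DBA/2 complexes, and at 3.27, 14.96 and 17.3 FPKM in 2-month cumulus cells. Every 10-month library was above every 2-month cumulus library, as for 8.93% of all genes. The mean was 25.6 ± 2.07 FPKM at 10 months, against 11.8 ± 7.52 FPKM at 2 months (SD, n = 3 each). The log2 fold change of 1.30 ± 0.54 SE did not pass (adjusted p = 0.349, limma). It was 0.63 without 2-month replicate 1 (adjusted p = 0.564), the lowest library for this gene. Mural cells overlapped with 2-month cumulus cells and lay below every 10-month library, by little in mural replicate 2 (23.22 FPKM, against 23.29 FPKM in 10-month replicate 3). Against 2-month cumulus cells the log2 fold change was 0.64 (adjusted p = 0.490, limma). Its sign turned to -0.03 without 2-month cumulus replicate 1 (adjusted p = 0.967).

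Ankrd1, a nuclear ankyrin repeat protein of heart and skeletal muscle and a common YAP target in cultured cells, was listed at 0 in 9 of 10 libraries. It stood at 0.118 FPKM in 10-month cumulus replicate 3, the library with the most markers of other cells. It was below the filter of a mean FPKM of 1 and was not tested, although its upstream sequence above holds GGAATG at 2 places.

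**Figure D2:**
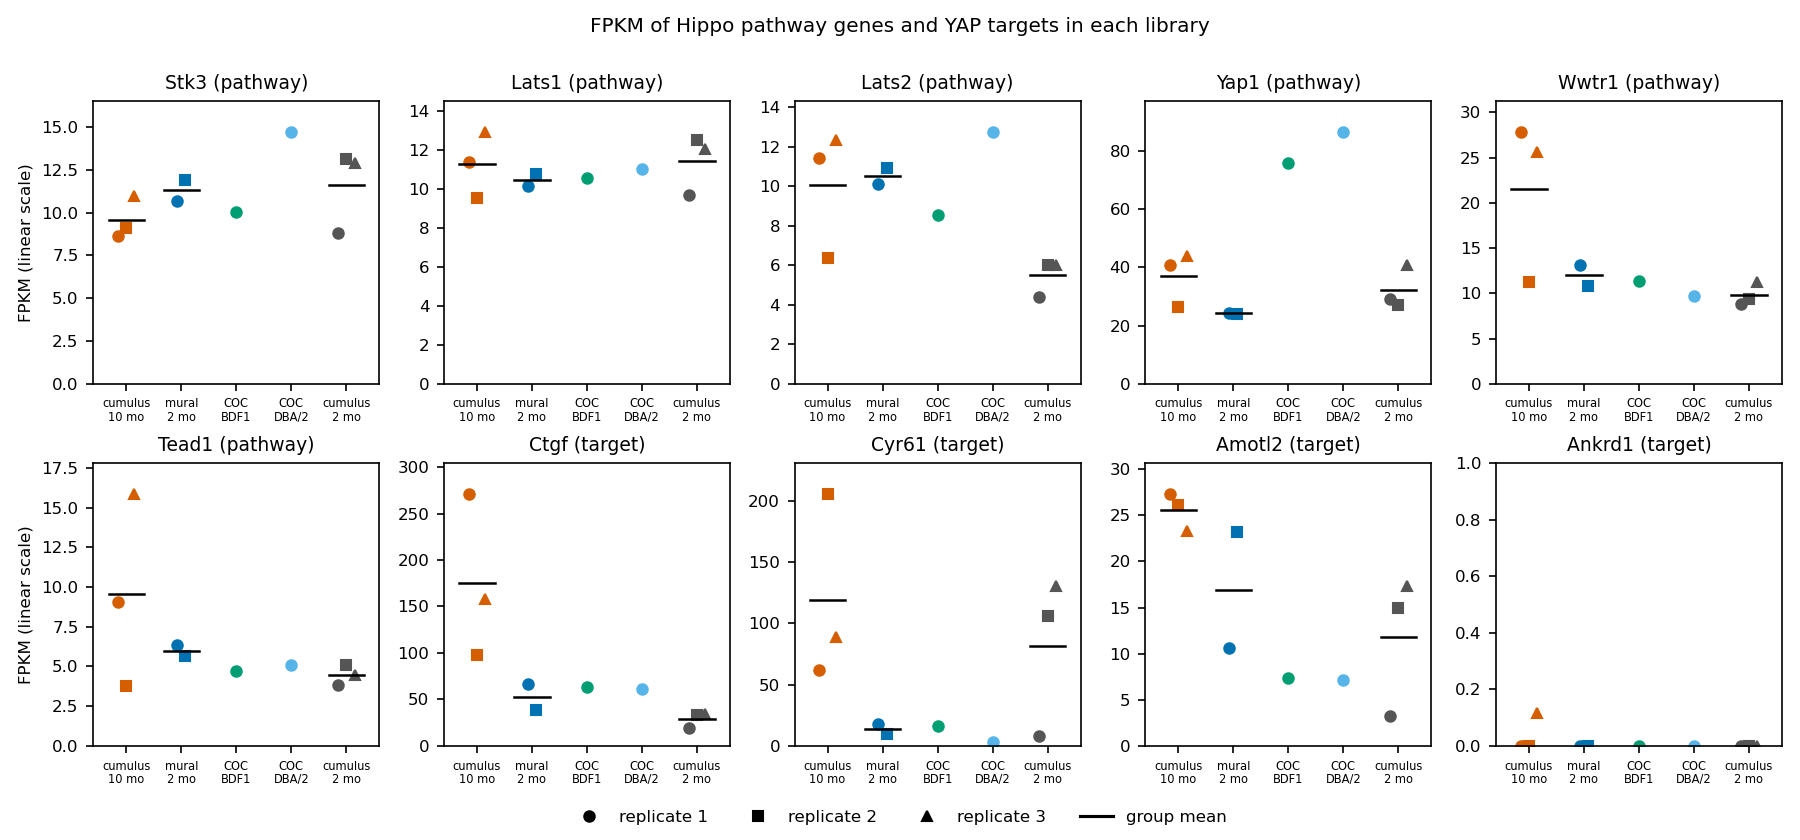
FPKM of the 10 members (y axis, linear scale, 1 panel per gene) by group (x axis), with 1 point per library and a bar at the mean of groups with more than 1 library. Ctgf stands at 98.3 to 271 FPKM in 10-month cumulus cells and at 18.9 to 34.4 FPKM in 2-month cumulus cells, Yap1 is highest in the complexes, and Ankrd1 is at 0 in 9 libraries.

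Taken over the list, 9 of the 10 members passed the filter and were tested. At 10 against 2 months 0 of 9 passed an adjusted p of 0.05, as did 0% of all 12412 genes, and 4 (Ctgf, Wwtr1, Lats2 and Amotl2) had an unadjusted p under 0.05 as higher, as did 7.73% of all genes (13.9% in either direction). Every 10-month library was above every 2-month library for 3 members (Ctgf, Amotl2 and Lats2), as for 8.93% of all genes, and 0 were lower in every library (8.88%). The median log2 fold change of the 9 was 0.78, against -0.02 for all genes tested. Without 10-month replicate 2, 3 members passed (Ctgf, Wwtr1 and Lats2), as did 1.97% of all genes. With library weights 1 (Ctgf) passed, as did 0.556% of all genes. Without 2-month replicate 1, 0 members and 0.0242% of all genes passed. In mural against 2-month cumulus cells 0 of 9 passed, where 20.9% of all genes did, and 1 (Lats2) had an unadjusted p under 0.05 as higher, as did 16.3% of all genes. There were 0 members with an unadjusted p under 0.05 as lower, as were 20.5% of all genes (36.8% in either direction). Lats2 passed with libraries centred on their medians, as did 19.1% of all genes, with these groups alone in the fit (26.7%) and without 10-month cumulus replicate 2 (22.4%). With library weights Lats2 and Cyr61 passed, as did 43.7% of all genes, and without 2-month cumulus replicate 1 Cyr61 passed, as did 13.7%. Every mural library was above every 2-month cumulus library for Tead1, Lats2 and Ctgf, as for 25.6% of all genes. The mural median was 0.26, against -0.08 for all genes. Rescaling to the same sum moved the value for all genes to 0.14, and it moved the members too. Wwtr1, the middle member as deposited, went from 0.26 to 0.50.

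**Figure D3:**
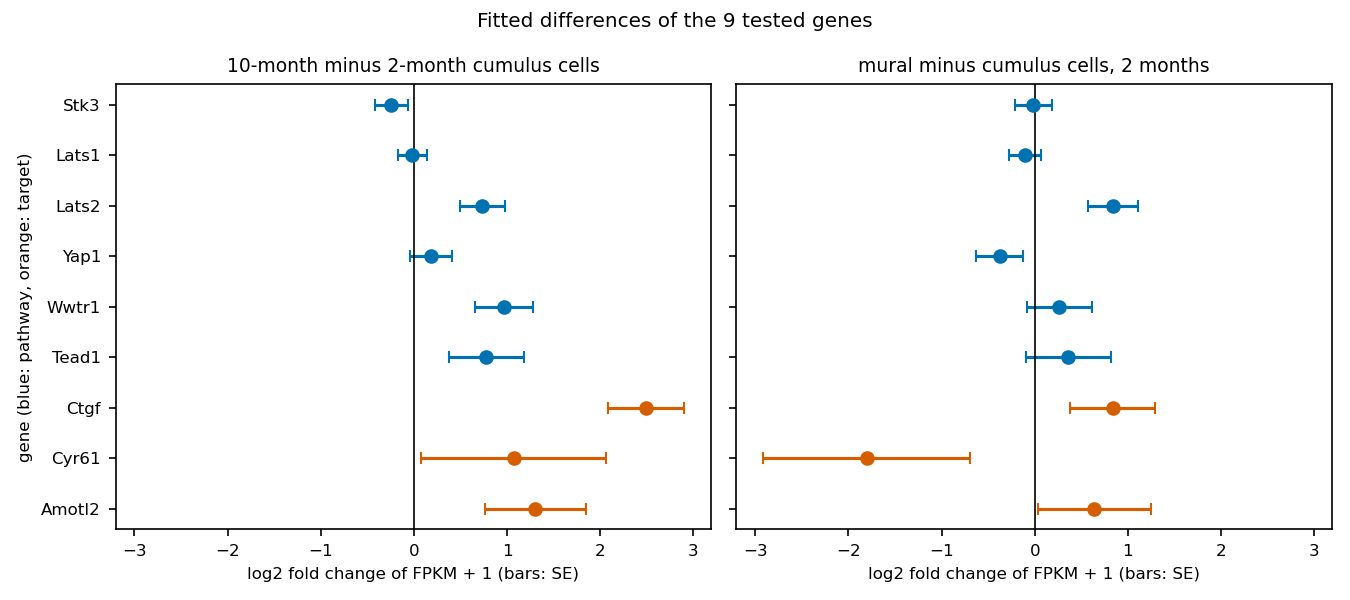
Log2 fold changes of FPKM + 1 (x axis) of the 9 tested members (y axis; blue for pathway genes, orange for targets) for 10-month minus 2-month cumulus cells (left) and mural minus cumulus cells at 2 months (right), with bars of 1 SE. Ctgf is at 2.49 on the left and Cyr61 at -1.80 on the right.

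The targets were set beside the level of immediate early genes, which cells switch on within minutes of a stimulus and to which Cyr61 is often counted. A list of 22 such genes, without Cyr61 and Ctgf, had a median log2(FPKM + 1) of 6.12, 6.92 and 6.74 in 10-month cumulus replicates 1, 2 and 3, of 3.93 and 3.37 in mural replicates 1 and 2, of 4.06 and 3.23 in BDF1 and DBA/2 complexes, and of 3.93, 5.42 and 5.84 in 2-month cumulus replicates 1, 2 and 3. Cyr61 kept the order of this median within each C57BL/6 group and between the complexes. Ctgf kept it within mural and 2-month cumulus cells and between the complexes, and ran in the reverse order within 10-month cumulus cells, where replicate 1 had the lowest median of the list and the highest Ctgf. Amotl2 kept the order within 2-month cumulus cells and between the complexes, and not in the mural or 10-month libraries. In mural against 2-month cumulus cells 12 of the 22 fell and 0 rose, where 11.2% of all genes fell and 9.69% rose, with a median log2 fold change of -2.15. The count of 12 was 0 without mural replicate 2, 1 without 2-month cumulus replicate 2, 4 without mural replicate 1 or without 2-month cumulus replicate 3, and 17 with library weights. Fos, a subunit of the AP-1 transcription factor, fell to 106 and 26.4 FPKM in mural cells, against 351, 850.1 and 852 FPKM in 2-month cumulus cells (log2 fold change -3.55, adjusted p = 0.0203, limma). At 10 against 2 months 0 of the 22 passed, as did 0% of all genes. Of the fitted differences 22 of 22 were positive (median 0.91), as were 5776 of 12412 over all genes tested. The median was 0.46 without 2-month replicate 1, 0.57 without 10-month replicate 2 and 1.43 without 2-month replicate 3. Without 10-month replicate 2, or with library weights, 2 genes passed as higher. Of all genes 1.97% and 0.556% passed there, in either direction. The count was 0 of the 22 without any other 1 of the cumulus libraries. The part of these genes in the values of Cyr61 was not tested.

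The ratio of the matricellular targets ran opposite to this median within each C57BL/6 group and between the complexes, but not across groups. Cyr61 is the denominator of this ratio, so its order is not independent of that of Cyr61 given above. Ctgf over Cyr61 was 4.40, 0.478 and 1.77 in 10-month cumulus cells, 3.71 and 3.89 in mural cells, 3.92 and 19.6 in BDF1 and DBA/2 complexes, and 2.39, 0.313 and 0.264 in 2-month cumulus cells. Replicate 1 at 10 months thus had a higher ratio than both mural libraries, although its median of the list was higher too. The 3 libraries in which Cyr61 exceeded Ctgf were replicate 2 at 10 months and replicates 2 and 3 at 2 months.

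**Figure D4:**
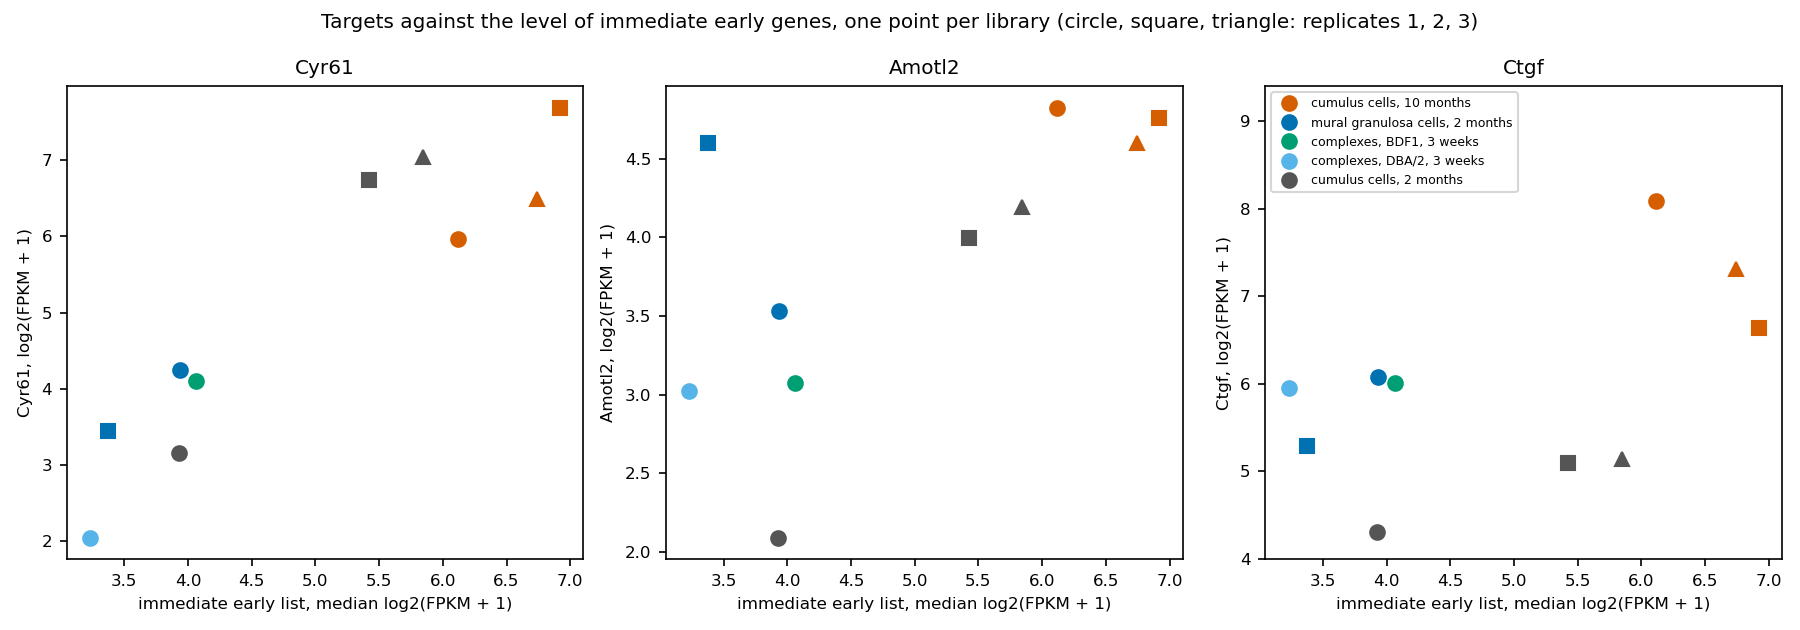
Log2(FPKM + 1) of Cyr61, Amotl2 and Ctgf (y axes) against the median log2(FPKM + 1) of 22 immediate early genes (x axis), with 1 point per library, coloured by group. Cyr61 is low in the 5 libraries with a median up to 4.06 and high in the others, while Ctgf is highest in 10-month replicate 1, at a median of 6.12.

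Other genes of the pathway were taken from lists, with the 10 members left out. Of 6 further core kinases and adaptors tested, 0 passed in either comparison. Of all genes 0% passed at 10 against 2 months and 20.9% in mural against cumulus cells. The median log2 fold change of the 6 was 0.06 at 10 against 2 months and 0.15 in mural against cumulus cells. Sav1, the scaffold of MST kinases, stood at 25.8, 17.1 and 38.1 FPKM in 10-month cumulus cells and at 20.3, 16.3 and 18.8 FPKM in 2-month cumulus cells (log2 fold change 0.46, adjusted p = 0.481, limma). Of 3 further TEAD partners tested (Tead2, Tead3 and Vgll4), 0 passed in either comparison, beside the same shares of all genes. Vgll4, a TEAD cofactor that competes with YAP, stood at 23.9, 8.18 and 17.3 FPKM in 10-month cumulus cells and at 11.4, 9.32 and 8.92 FPKM in 2-month cumulus cells (log2 fold change 0.57, adjusted p = 0.489, limma). Tead4, Vgll1, Vgll2 and Vgll3 were below the filter.

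Of 25 further upstream regulators tested, 3 were higher and 3 lower in mural than in 2-month cumulus cells, beside shares of all genes of 9.69% and 11.2%. The counts were 0 and 0 without mural replicate 2, 0 and 1 without mural replicate 1, and 2 and 1 without 2-month cumulus replicate 2. Fat1, a giant cadherin, rose to 77.6 and 77.5 FPKM in mural cells, against 22.5, 27.4 and 25.2 FPKM in 2-month cumulus cells (log2 fold change 1.60, adjusted p = 0.00909, limma). Wtip, a LIM protein of the family that binds LATS kinases, was higher too (8.70 and 8.30, against 4.95, 4.02 and 3.27 FPKM; log2 fold change 0.92, adjusted p = 0.0124). The third, Ptpn14, a phosphatase that binds YAP, was low in all libraries (2.34 and 3.12, against 0.674, 0.806 and 0.756 FPKM; adjusted p = 0.0320). Rassf1, a scaffold that binds MST kinases, fell to 9.87 and 7.30 FPKM in mural cells, against 17.1, 28.1 and 31.8 FPKM in 2-month cumulus cells (log2 fold change -1.45, adjusted p = 0.0179). The other lower genes were Rassf2 (17.7 and 17.9, against 48.3, 45.2 and 35.1 FPKM) and Ppp2r1a, a scaffold subunit of protein phosphatase 2A (61.2 and 63.0, against 107, 103 and 93.7 FPKM).

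At 10 against 2 months 0 of the 25 passed. Without 10-month replicate 2 there was 1 that passed as lower, where 1.97% of all genes passed in either direction. With library weights 1 passed as higher and 1 as lower, where 0.556% of all genes passed in either direction. Without any other 1 of the cumulus libraries, 0 of the 25 passed. Rassf2, which binds MST kinases, had the smallest p, at 14.3, 18.7 and 14.9 FPKM at 10 months, against 48.3, 45.2 and 35.1 FPKM at 2 months (log2 fold change -1.37, adjusted p = 0.0869, limma). Wtip stood at 8.92, 7.98 and 8.62 FPKM at 10 months, against 4.95, 4.02 and 3.27 FPKM at 2 months (adjusted p = 0.152). Jub, a relative of Wtip, stood at 10.1, 8.81 and 7.80 FPKM at 10 months, against 6.08, 5.99 and 4.98 FPKM at 2 months (adjusted p = 0.263). In none of these 3 genes, picked by the smallest p, did the ages overlap. Of the 25, 3 were higher and 1 lower in every 10-month library, as were 8.93% and 8.88% of all genes.

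A wider list of genes often counted as YAP and TAZ targets, mostly from work on human cells, held 13 further tested genes. At 10 against 2 months 0 of 13 passed, with a median log2 fold change of 1.07, against -0.02 for all genes, and 6 had every 10-month library above every 2-month library, as had 8.93% of all genes. The median was 0.52 without 10-month replicate 3. The immune and theca and stroma markers given above were also higher in every 10-month library, and their part in these targets was not tested. Gadd45a, a growth arrest gene that p53 also switches on, stood at 42.9, 17.5 and 41.4 FPKM at 10 months, against 6.19, 7.51 and 9.84 FPKM at 2 months (log2 fold change 1.90, adjusted p = 0.160, limma). Nt5e, which makes adenosine outside the cell, stood at 1.68, 1.72 and 3.06 FPKM at 10 months, against 0.526, 0.245 and 0.236 FPKM at 2 months (adjusted p = 0.196). Without 10-month replicate 2, 5 of the 13 passed as higher (Gadd45a, Crim1, Myof, Ccdc80 and F3), where 1.97% of all genes passed in either direction. The count was 0 without any other 1 of the cumulus libraries, and 1 with library weights. F3, tissue factor, stood at 47.2, 10.2 and 229 FPKM at 10 months, against 1.89, 3.47 and 6.57 FPKM at 2 months, with its highest value in replicate 3.

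In mural against 2-month cumulus cells 5 of the 13 rose and 0 fell, where 9.69% of all genes rose. Dock5, an exchange factor for RAC, rose to 14.6 and 16.9 FPKM in mural cells, against 1.42, 1.41 and 2.97 FPKM in 2-month cumulus cells (log2 fold change 2.55, adjusted p = 0.0102, limma). Crim1 rose to 82.1 and 61.2 FPKM, against 21.2, 24.6 and 20.3 FPKM (adjusted p = 0.0467), and Myof, a membrane repair protein, to 14.1 and 16.6 FPKM, against 3.72, 4.75 and 3.56 FPKM (adjusted p = 0.0400). The other members of the 5 were Igfbp3, which binds insulin-like growth factors (3.67 and 12.4, against 0.265, 0.278 and 0.356 FPKM), and Ptpn14, which is also among the upstream regulators. The count was 0 without mural replicate 1 or without mural replicate 2, 1 without any 1 of the 2-month cumulus replicates, 2 without 10-month cumulus replicate 1 and 9 with library weights. Markers of other cells moved with it: theca and stroma markers summed to 110 and 175 FPKM and endothelial markers to 26.3 and 70.0 FPKM in mural cells, against 15.5 to 18.1 FPKM and 1.73 to 5.18 FPKM in 2-month cumulus cells. Their part in the levels of these targets was not tested.

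**Figure D5:**
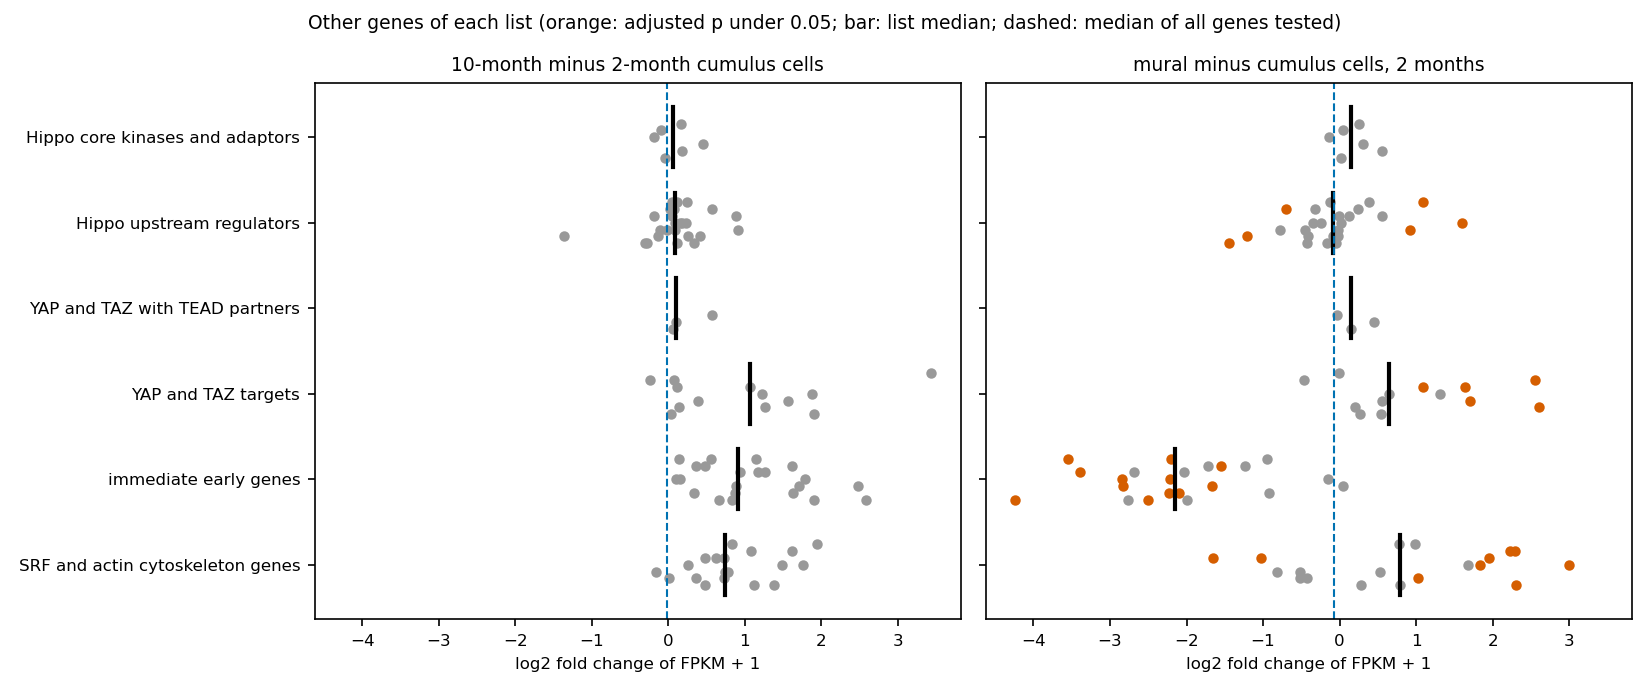
Log2 fold change of FPKM + 1 (x axis) of the tested genes of each list (y axis), the 10 members left out, for 10-month minus 2-month cumulus cells (left) and mural minus cumulus cells at 2 months (right). Points in orange passed an adjusted p of 0.05, short bars are list medians and the dashed line is the median of all 12412 genes tested. The median of the further YAP and TAZ targets is 1.07 on the left and 0.65 on the right, and that of immediate early genes 0.91 and -2.15.

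Genes whose pattern over the 10 libraries was most like that of Ctgf and of Yap1 were found by the root mean square difference of log2(FPKM + 1), centred on each gene's mean. Of 11125 candidates, the 5 nearest to Ctgf were Myc (0.45), Cxcr7 (0.50), Relb (0.52), Zswim4 (0.53) and Lrrc8c (0.53), where the median candidate was at 1.15. Myc, a growth-promoting transcription factor, stood at 72.7, 36.3 and 61.9 FPKM in 10-month cumulus cells, at 15.04 and 12.2 FPKM in mural cells, at 18.2 and 17.4 FPKM in BDF1 and DBA/2 complexes, and at 12.2, 18.2 and 15.5 FPKM in 2-month cumulus cells. The 5 nearest to Yap1 were Bcar3 (0.11), Ssh1 (0.12), Ankrd17 (0.12), Akirin2 (0.14) and Zcchc2 (0.14), where the median candidate was at 0.67. Bcar3 stood at 49.5 and 61.5 FPKM in BDF1 and DBA/2 complexes, above the 17.3 to 29.1 FPKM of the 8 libraries from C57BL/6 mice.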

How the data were processed

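The 10 RNA-seq libraries were grouped by their titles. The authors deposited a single table of FPKM values, and the submitters' processing notes name TopHat2 2.1.0, Cufflinks 2.1.0 and build mm9. Annotation, strandedness and depth are unknown here, so counting error has no interval. A repeated header line (1) was dropped. The 12412 genes whose FPKM averaged 1 or more in the 8 libraries from C57BL/6 mice entered 1 linear model of log2(FPKM + 1), a scale that understates the change of low genes, with a term per group, in limma 3.58.1 (R 4.3.3, intensity trend). Tests were two-sided, and p-values were adjusted by Benjamini-Hochberg over all genes tested, with a threshold of 0.05. The fit was also run on simulated data with independent noise for each gene and library. Those data hold no outlying library, so they say nothing of results that change when 1 library is left out. The members, the lists and the tests were chosen with earlier results of these data known. Named genes are the 10 members and, per list and comparison, up to 6 genes that passed or else the 3 with the smallest p, of which not all are printed, besides the 5 genes most like Ctgf and Yap1. F3, Crim1, Myof and Ccdc80 at 10 months, Gdf9 and the full set of TEAD genes were named after their values were seen. Between replicates 0% of values above 0 were identical. Alternatives changed the pseudocount, filter, scaling, trend, groups in the fit, replicate block and library weights, or left out 1 library.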

Additional observations from a re-analysis of the deposited data

How the results depend on the processing

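Over 20 alternatives per member and comparison, 171 differences at 10 against 2 months and 163 in mural against cumulus cells, of 360 in all, kept their sign and their side of the threshold, 4 and 6 passed under the alternative alone, and 5 and 11 changed sign. With libraries rescaled to the same sum, Lats1 was at 0.0400 at 10 against 2 months and at 0.13 in mural against cumulus cells, where Stk3 was at 0.22. With Mir and Snor genes left out before rescaling, Lats1 was at 0.0885 and Stk3 at 0.18 in mural cells. Stk3 was at 0.0298 there after quantile normalization and at 0.0433 after median centring. Leaving out 1 library moved Lats1 over -0.12 to 0.0894 and Cyr61 over -0.18 to 1.77 at 10 against 2 months, and Stk3 over -0.19 to 0.0757 and Amotl2 over -0.0286 to 1.17 in mural against cumulus cells. It moved the members that passed over 0 to 3 at 10 against 2 months and over 0 to 1 in mural against cumulus cells, and all genes that passed over 0 to 245 and over 99 to 3253. Library weights gave 1 and 2 members and 69 and 5425 genes, against 0 and 0 members and 0 and 2599 genes as reported. In mural cells 1 member passed with median centring and 1 with only these groups in the fit, and after rescaling 0 members lay below every 2-month cumulus library. The cause was not tested. Rescaling put 69.5% of the genes that passed in mural cells as higher, against 46.3% as reported.

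Replicate numbers were not used as pairs in the reported fit. Between the ages, deviations of same-numbered libraries correlated at 0.006, 0.118 and 0.147, and those of other-numbered libraries at -0.138 to 0.0395. Between mural and 2-month cumulus cells the values were 0.0322 and 0.214 for the same number, and -0.214 to 0.170 for other numbers. These values do not decide whether the numbers mark pairs. With the replicate block 0 genes passed at 10 against 2 months and 3361 in mural against cumulus cells, 0 members passed in either, and Stk3 was at 0.0683 in mural cells. Low values such as those of Ankrd1 are limited by a depth that is unknown.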

Other observations

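Genes of the actin cytoskeleton and targets of serum response factor, a list that holds none of the 10 members, had 19 tested genes. In mural against 2-month cumulus cells 7 rose and 2 fell, where 9.69% of all genes rose and 11.2% fell. The counts were 0 and 0 without mural replicate 2, 5 and 1 without mural replicate 1, and 11 and 6 with library weights. Tagln, an actin-binding protein of smooth muscle, rose to 7.39 and 12.7 FPKM in mural cells, against 0.857, 1.05 and 1.73 FPKM in 2-month cumulus cells (log2 fold change 2.30, adjusted p = 0.00486, limma). Srf, the factor itself, fell to 11.1 and 9.04 FPKM, against 23.1, 35.8 and 46.4 FPKM (log2 fold change -1.66, adjusted p = 0.0178). Theca and stroma markers, among them the list's own Acta2, were also higher in mural cells, and their part was not tested. At 10 against 2 months 0 of 19 passed, and 12 had every 10-month library above every 2-month library, as had 8.93% of all genes. Without 10-month replicate 2, 6 of 19 passed as higher, as did 1.97% of all genes in either direction. The count was 1 without 10-month replicate 1 or with library weights. It was 0 without 10-month replicate 3 or without any 1 of the 2-month cumulus replicates. Tagln stood at 5.41, 4.74 and 7.20 FPKM at 10 months, against 0.857, 1.05 and 1.73 FPKM at 2 months (adjusted p = 0.152). Theca and stroma markers summed to 37.1, 37.5 and 62.1 FPKM at 10 months, against 15.5 to 18.1 FPKM at 2 months.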
